A study of Mus musculus with 12 samples.

Results

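Mitochondrially encoded transcripts are the RNAs copied from the small circular genome inside mitochondria. They were taken here as every row of the deposited scaled count table whose gene symbol starts with mt-, which gave 37 of 56748 rows: 2 ribosomal RNAs (rRNAs), 13 messenger RNAs (mRNAs) and 22 transfer RNAs (tRNAs). The study sequenced retinas of 2-month-old mice in 4 groups of 3 libraries. Control animals were RiboTag;i75-Rod-Cre littermates and knockout animals were RiboTag;Abca4-/-;i75-Rod-Cre, named Abca4Ko below, so both genotypes carried the RiboTag allele and the Cre. RiboTag adds an epitope to a protein of the cytosolic ribosome where Cre has acted, and the Cre is driven by the rhodopsin promoter, so the tag is made in rods. From each genotype, one set of libraries came from the whole retinal lysate (retina) and the other from RNA pulled down with the tagged ribosomes (rod TRAP, translating ribosome affinity purification). Cycloheximide, which holds cytosolic ribosomes on their messages, was given before freezing. The sex of the animals and the number of animals behind a library were not given, so p-values describe the spread between these libraries.

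The mitochondrial genome is copied from both strands as long precursors, which are cut into individual RNAs mostly at the tRNAs that lie between the other genes. The 13 mRNAs code for membrane subunits of respiratory complexes I, III and IV and of the ATP synthase, and they are read inside the organelle by mitochondrial ribosomes built around mt-Rnr1 (12S rRNA) and mt-Rnr2 (16S rRNA). The tagged protein belongs to cytosolic ribosomes, which do not read these messages. Photoreceptors pack mitochondria densely into the ellipsoid of the inner segment, next to the light-sensitive outer segment.

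The values are scaled counts, which are read counts multiplied by a factor per library and rounded, so that the rod TRAP libraries sum to 17096515 to 17097707 and the retina libraries to 17860761 to 17862326. The depth before scaling was not recovered. Abca4 itself, the flippase lost in the knockout, had 37619 to 38929 scaled counts in control retina and 153, 366 and 8124 in Abca4Ko retina replicates 1, 2 and 3. In rod TRAP it had 53193 to 61017 in control and 195, 365 and 13156 in Abca4Ko. The libraries labelled Abca4Ko replicate 3 therefore kept 21.3% of the control mean in retina and 23.5% in rod TRAP. The counts of called members in comparisons that use these libraries are given with and without them. A list of 20 rod marker genes was higher in rod TRAP than in retina for 20 of 20 genes in control, beside 36% of the 16286 genes tested that were called higher, with a median log2 fold change of 1.35. Summed levels of gene lists are given in CPM, there meaning scaled counts per 1000000 of the library total without TMM scaling. The 15 markers of Müller glia, the main support cells of the retina, summed to 153 to 237 CPM in the rod TRAP libraries and to 4741 to 7345 CPM in the retina libraries.

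The sequences bear on what these rows measure, because nuclear DNA holds close copies of part of the mitochondrial genome and because some mitochondrial genes overlap. The mouse reference annotation GENCODE M21 (GRCm38) lists 7 unprocessed pseudogenes on chromosome 1 that match members. Its sequences are used throughout. The authors' files were made on GRCm39, so no coordinates are given. Gm28437 matched 783 of the 784 annotated bases of mt-Co3, a core subunit of complex IV, with 100% identity. Their first 90 bases are shown to make plain that a short read from one cannot be told from the other.
mt-Co3: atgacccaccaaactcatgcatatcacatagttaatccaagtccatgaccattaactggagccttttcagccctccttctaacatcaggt
Gm28437: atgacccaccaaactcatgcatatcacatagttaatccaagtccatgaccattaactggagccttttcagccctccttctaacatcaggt
Gm28661 (mt-Co2), Gm10925 (mt-Atp6), Gm10222 (mt-Nd4l) and Gm28439 (the first 63.6% of mt-Nd4) were also 100% identical over their length. The only difference in the pair of mt-Nd3 and Gm28438 was T3C, counted from the first base of mt-Nd3, and it is in capitals.
mt-Nd3: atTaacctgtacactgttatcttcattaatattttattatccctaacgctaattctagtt
Gm28438: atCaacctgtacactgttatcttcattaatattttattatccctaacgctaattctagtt
The copy of mt-Co1, Gm29216, covers only its last 492 bases, at 98.8% identity. All 6 differences lie at the copy's start. Counted from the first base of mt-Co1 they are T1056A, C1057T, A1059G, A1060G, C1062A and A1066T, and they are in capitals in bases 1054 to 1143 of mt-Co1 and the first 90 bases of the copy.
mt-Co1: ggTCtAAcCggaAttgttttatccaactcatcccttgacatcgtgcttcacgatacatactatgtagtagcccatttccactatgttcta
Gm29216: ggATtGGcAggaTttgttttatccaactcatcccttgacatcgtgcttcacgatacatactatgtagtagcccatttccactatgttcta
Members with no copy among these 7 are mt-Rnr1, mt-Rnr2, mt-Nd1, mt-Nd2, mt-Nd5, mt-Nd6, mt-Cytb and mt-Atp8. The end of mt-Atp8 overlaps mt-Atp6, however, and the overlap lies within the part that Gm10925 matches.

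Some members also overlap each other. mt-Nd5 and mt-Nd6, subunits of complex I on opposite strands, have last 14 bases that pair with each other. The last 60 bases of each are shown in their own sense, with the overlap in capitals.
mt-Nd5: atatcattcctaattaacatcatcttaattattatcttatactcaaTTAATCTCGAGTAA
mt-Nd6: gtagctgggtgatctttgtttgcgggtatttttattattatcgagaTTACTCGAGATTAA
The library kit does not mark strand, so reads from mt-Nd6 and from RNA of the opposite strand cannot be told apart by strand. mt-Nd6 is the only mRNA on its strand. Among neighbours on the same strand, mt-Atp8 and mt-Atp6 share 43 bases and mt-Nd4l and mt-Nd4 share 7. The samples are labelled as poly(A) RNA, so the A runs inside the rRNAs are also of interest. mt-Rnr1 holds 2 runs of 5 or more A, the longest of 5, and mt-Rnr2 holds 9, the longest of 7. The stretch of 120 bases around the longest run of each is shown with such runs in capitals.
mt-Rnr1: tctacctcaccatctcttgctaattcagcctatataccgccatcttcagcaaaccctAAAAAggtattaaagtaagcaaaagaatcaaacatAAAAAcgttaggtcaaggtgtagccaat
mt-Rnr2: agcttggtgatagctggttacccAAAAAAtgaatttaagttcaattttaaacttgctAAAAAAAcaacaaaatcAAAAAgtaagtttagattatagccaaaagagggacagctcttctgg

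Mitochondrially encoded rows held a small and uneven part of the libraries. In retina their share of all scaled counts was 2.33%, 1.84% and 1.90% in control replicates 1, 2 and 3 and 5.70%, 2.75% and 3.17% in Abca4Ko. In rod TRAP it was 0.0504%, 0.0472% and 0.0623% in control and 0.186%, 0.0557% and 0.0508% in Abca4Ko. The highest rod TRAP library was thus far below the lowest retina library. Both libraries labelled Abca4Ko replicate 1 stood above the others of their fraction. All 15 rRNAs and mRNAs reached at least 10 scaled counts in all 12 libraries, whereas mt-Tf was at 0 in all of them.

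**Figure D1:**
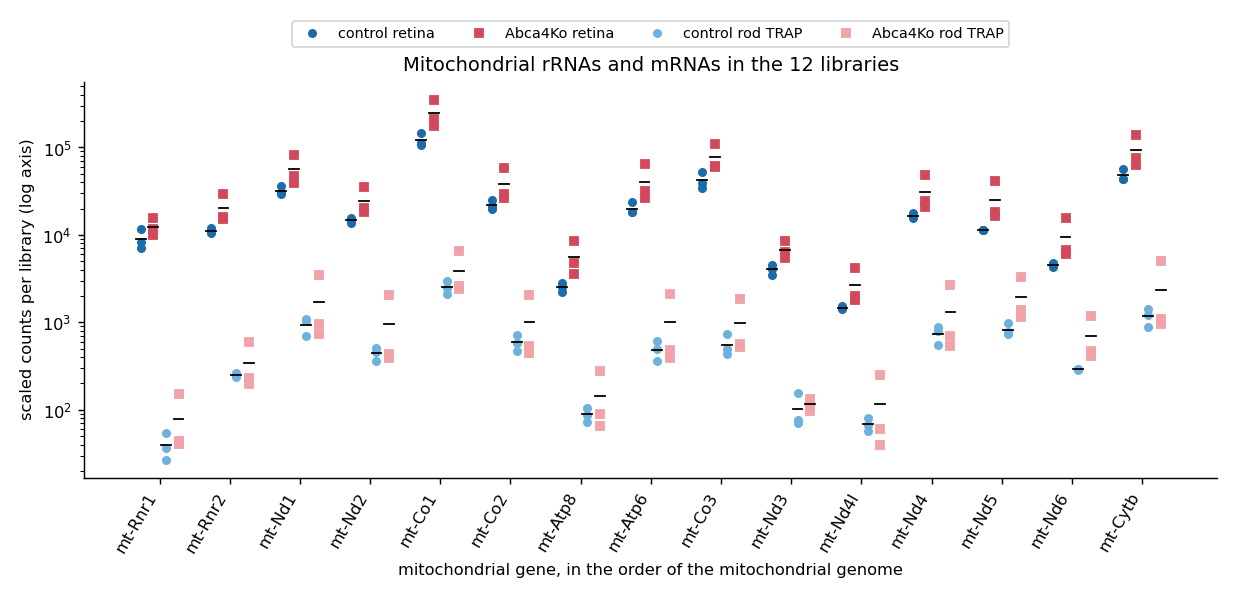
Scaled counts of the 2 rRNAs and 13 mRNAs (log axis) in the order of the mitochondrial genome; each point is a library, circles are control, squares are Abca4Ko, dark colours are retina, light colours are rod TRAP and black bars are group means. Every retina point of a gene lies above every rod TRAP point of that gene, and the highest point of the Abca4Ko groups is replicate 1.

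Per kilobase of annotated length, mt-Co1, the catalytic core of complex IV, was highest in control retina, at 78406 ± 13507 scaled counts per kb (SD, n = 3). mt-Co3 followed at 53767 ± 11462 and mt-Cytb, the membrane core of complex III, at 41820 ± 6276. The libraries of mt-Co1 did not overlap those of mt-Co3, while those of mt-Co3 and mt-Cytb did. mt-Nd1 (33185), mt-Co2 (32458) and mt-Atp6 (29322) came next. mt-Nd1 did not overlap mt-Cytb, but it overlapped mt-Co2, and mt-Co2 overlapped mt-Atp6. A gap without overlap separated mt-Atp6 from mt-Nd2 at 14105 ± 828. At the lower end, mt-Nd6 had 8739 ± 403, mt-Nd5 6212 ± 33.7 and mt-Nd4l 4962 ± 206 scaled counts per kb. The rRNAs were not at the top. mt-Rnr1 stood at 9510 ± 2493 and mt-Rnr2 at 7080 ± 486, both among the 5 lowest of the 15. These are levels in libraries made from poly(A) RNA.

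In control rod TRAP, the per-kb order was partly different. mt-Co1 was again highest, at 1627 ± 278 scaled counts per kb (SD, n = 3), without overlap with mt-Cytb at 1022 ± 241. From mt-Cytb down to mt-Nd4l, each mRNA overlapped the next one in order. mt-Co3 ranked sixth at 707 ± 204, against second in retina, and mt-Nd6 seventh at 560 ± 4.85. Both rRNAs lay below every mRNA: mt-Rnr2 had 157 ± 10.1 and mt-Rnr1 41.2 ± 14.3 scaled counts per kb, with no overlap between them or with mt-Nd4l.

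The deposited TPM (transcripts per 1000000) table, which also allows for length, differed from the scaled counts per kb for some members. In control retina mt-Co1 had 7680 ± 1210 TPM (SD, n = 3), mt-Co3 4613 ± 692 and mt-Cytb 4305 ± 567, but mt-Co2 had 445 ± 61.5 and mt-Atp6 512 ± 259. The 13 mRNAs summed to 35100 ± 4115 TPM in control retina, 65887 ± 20546 in Abca4Ko retina, 1167 ± 243 in control rod TRAP and 1941 ± 1253 in Abca4Ko rod TRAP. All 22 tRNAs were listed at 0 TPM in all 12 libraries.

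mt-Nd6 also differed between the tables. Its TPM was 71.8, 87.6 and 92.5 in control retina and 2.1, 1.9 and 1.5 in control rod TRAP. Set against its scaled counts per kb, this came to between 0.825 and 10.8 TPM per 1000 over the 12 libraries. The same quotient was 74.9 to 119 for mt-Nd5 and 86.5 to 145 for mt-Rnr1, mt-Rnr2, mt-Nd1, mt-Nd2 and mt-Cytb. Among members with a nuclear copy, the quotient was 89.4 to 134 for mt-Co1 and 109 to 168 for mt-Nd4. It was 319 to 557 for mt-Atp8, which has no listed copy but shares 43 bases with mt-Atp6, which has one. What sets the quotient was not tested. It was also high for the other short mRNAs mt-Nd3 and mt-Nd4l, at 344 to 532 and 265 to 419, and low for mt-Co2 and mt-Atp6, at 0 to 26.8 and 0 to 73.6. Most of the scaled count of mt-Nd6 thus had no counterpart in its TPM. How each table treated strand is not given in the sources used here, and scaled counts of mt-Nd6 are not read below as a level of that message alone.

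The first comparison asked which transcripts were carried into the rod TRAP fraction. Each gene was fitted with limma on log2(CPM + 0.5), where CPM, in the fits only, is the scaled count per 1000000 after TMM scaling. A gene was called at an adjusted p (Benjamini-Hochberg, over all genes tested) under 0.05. In control, 15 of 15 rRNAs and mRNAs fell in rod TRAP, beside 39.3% of the 16286 genes tested that were called lower. The pull-down changed most of the transcriptome, as 75.3% of genes were called in either direction. The median log2 fold change of the 15 was -4.55, beside -0.05 over all genes tested. Falls of similar size were seen in nuclear markers of other retinal cells. Medians were -4.28 for Müller glia (15 of 15 lower), -4.28 for bipolar (12 of 14), -3.97 for amacrine (14 of 14) and -4.17 for ganglion cells (14 of 14). Of these, 12, 12, 9 and 11 genes had 10 scaled counts or more in at least 2 libraries of both groups. Cone markers were at -1.52, with 11 lower and 3 higher.

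mt-Rnr1 had the lowest value of all 16286 genes. It had 8371, 7138 and 11737 scaled counts in control retina and 27, 37 and 54 in control rod TRAP. Every retina library was at least 192.9 times its same-numbered rod TRAP library. The log2 fold change was -6.94 (SE 0.23, limma adjusted p = 3.12e-10).

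mt-Rnr2, the larger rRNA, fell less. It had 11196, 10433 and 11972 scaled counts in control retina and 235, 244 and 266 in rod TRAP. Its log2 fold change was -4.77 (SE 0.12, limma adjusted p = 2.63e-10). The ratio of retina to rod TRAP in same-numbered libraries was 42.8 to 47.6 for mt-Rnr2 and 192.9 to 310 for mt-Rnr1. The rRNAs of the small and the large mitochondrial ribosomal subunit therefore lay apart by more than the spread among libraries, and mt-Rnr2 was within the range of the mRNAs.

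Among the mRNAs, log2 fold changes in control ran from -5.56 to -3.09, with a median of -4.41. mt-Co3 was at the lower end. It had 52166, 34790 and 39504 scaled counts in control retina and 437, 490 and 736 in rod TRAP. This gave a log2 difference of -5.56 (SE 0.20, limma adjusted p = 4.29e-10). mt-Co1 had 144936, 112507 and 105969 scaled counts in retina, the highest of any member, and 2096, 2490 and 2955 in rod TRAP, a log2 fold change of -4.90 (SE 0.16). The complex IV subunit mt-Co2 and the complex III subunit mt-Cytb were between these and the median, at -4.55 and -4.68.

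mt-Nd5, the longest member, kept the largest part among the rRNAs and mRNAs. It had 11270, 11328 and 11393 scaled counts in control retina and 729, 971 and 772 in rod TRAP, so 7.27% of the retina mean was present in rod TRAP. Its log2 fold change was -3.09 (SE 0.13, limma adjusted p = 9.74e-10). The row of mt-Nd6 was close to it, with 4736, 4319 and 4552 in retina, 291, 288 and 293 in rod TRAP and a log2 fold change of -3.24 (SE 0.12). In TPM, the log2 fold change of mt-Nd6 was -4.90, whereas that of mt-Nd5 was -3.25. The neighbours mt-Nd4l and mt-Nd4 were at -3.62 and -3.81 and mt-Atp8 at -4.05 in scaled counts. The subunits of complex I thus did not move as a block, since mt-Nd3, mt-Nd1 and mt-Nd2 were at -4.62, -4.41 and -4.35.

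**Figure D2:**
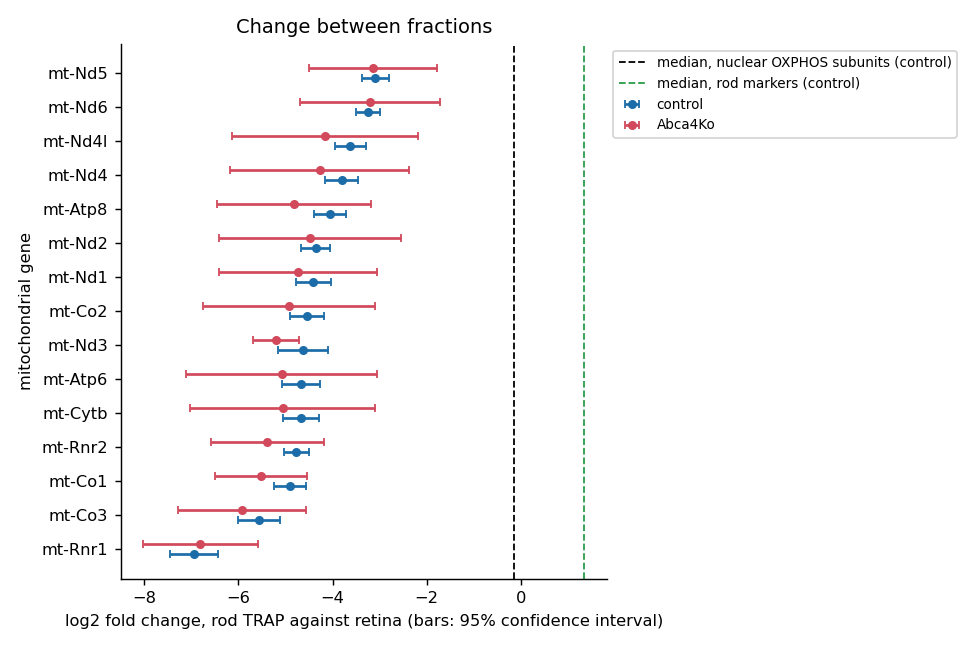
Log2 fold change between rod TRAP and retina (horizontal axis) of the 2 rRNAs and 13 mRNAs in control (blue) and Abca4Ko (red), with 95% confidence intervals from limma; dashed lines are the medians of 2 nuclear gene lists in control. All 15 points lie below -3 in both genotypes, mt-Rnr1 is lowest and mt-Nd5 is highest.

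In Abca4Ko the same fit called 15 of 15 lower as well, beside 34.3% of 16036 genes called lower. The standard errors were wider, 0.22 to 0.80, against 0.12 to 0.24 in control. mt-Rnr1 was again the lowest of all genes tested. It had 15725, 11674 and 9875 scaled counts in retina replicates 1, 2 and 3 and 152, 44 and 41 in rod TRAP. This gave a log2 difference of -6.81 (SE 0.51, limma adjusted p = 2.59e-05). mt-Rnr2 stood at -5.39 (SE 0.50), and the mRNAs ran from -5.92 for mt-Co3 to -3.14 for mt-Nd5, with a median of -4.82. The 95% intervals of mt-Rnr1 and mt-Co3, which did not meet in control, overlapped here, with half-widths of 1.22 and 1.37 around -6.81 and -5.92. These intervals come from the fit without pairing. In same-numbered Abca4Ko libraries 1, 2 and 3 the ratio of retina to rod TRAP was 103.5, 265.3 and 240.9 for mt-Rnr1. For mt-Co3 it was lower in each pair, at 59.6, 106.7 and 119.2. Without both libraries labelled replicate 3, which kept part of the Abca4 message, 7 of 15 were called lower, beside 22% of 13150 genes called lower and 42.3% called in either direction. All 15 had negative log2 fold changes there, with a median of -4.89. That fit had 2 libraries a group, with replicate 1 high in both fractions.

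Retina to rod TRAP ratios in same-numbered libraries were steady for some members and not for others. For mt-Nd5 the 6 ratios lay between 11.7 and 15.5 in both genotypes together, and for mt-Nd6 between 13.1 and 16.3. For mt-Cytb they ran from 27.6 to 79.2 and for mt-Atp6 from 29.9 to 80.8. In Abca4Ko the ratios of mt-Cytb were 27.6, 57.0 and 79.2 in pairs 1, 2 and 3, and those of mt-Nd5 were 12.5, 14.0 and 13.0.

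Because members fell unequally, the make-up of the mitochondrial RNA differed between fractions. The rRNAs made up 4.70%, 5.35% and 7.00% of mitochondrial scaled counts in control retina and 4.43%, 5.64% and 4.42% in Abca4Ko retina. In rod TRAP they made up 3.04%, 3.49% and 3.00% in control and 2.34%, 2.90% and 2.76% in Abca4Ko. The fractions did not overlap in either genotype, and the genotypes overlapped in retina but not in rod TRAP. No test was run on these shares. Both ways of leaving out mRNAs kept the fractions apart. With only the 5 mRNAs that have no such nuclear copy and share no bases with another mRNA on their strand (mt-Nd1, mt-Nd2, mt-Nd5, mt-Nd6 and mt-Cytb), the rRNA share was 12.5% to 18.4% in the 6 retina libraries and 4.70% to 8.05% in the 6 rod TRAP libraries.

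Within the rRNAs, mt-Rnr2 exceeded mt-Rnr1 by 1.02 to 1.87 times in the 6 retina libraries and by 3.91 to 8.70 times in the 6 rod TRAP libraries. Within the mRNAs, mt-Nd5 made up 2.85%, 3.65% and 3.63% of mRNA scaled counts in control retina and 8.74%, 12.5% and 7.48% in control rod TRAP. In Abca4Ko it made up 4.28%, 3.53% and 3.36% in retina and 10.7%, 12.6% and 16.5% in rod TRAP. mt-Co1 went the other way, from 33.7% to 39.2% of mRNA scaled counts over the 6 retina libraries to 21.2% to 32.1% over the 6 rod TRAP libraries. The ratio of mt-Co1 to mt-Nd5 was 8.50 to 12.9 in retina and 1.72 to 3.83 in rod TRAP.

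**Figure D3:**
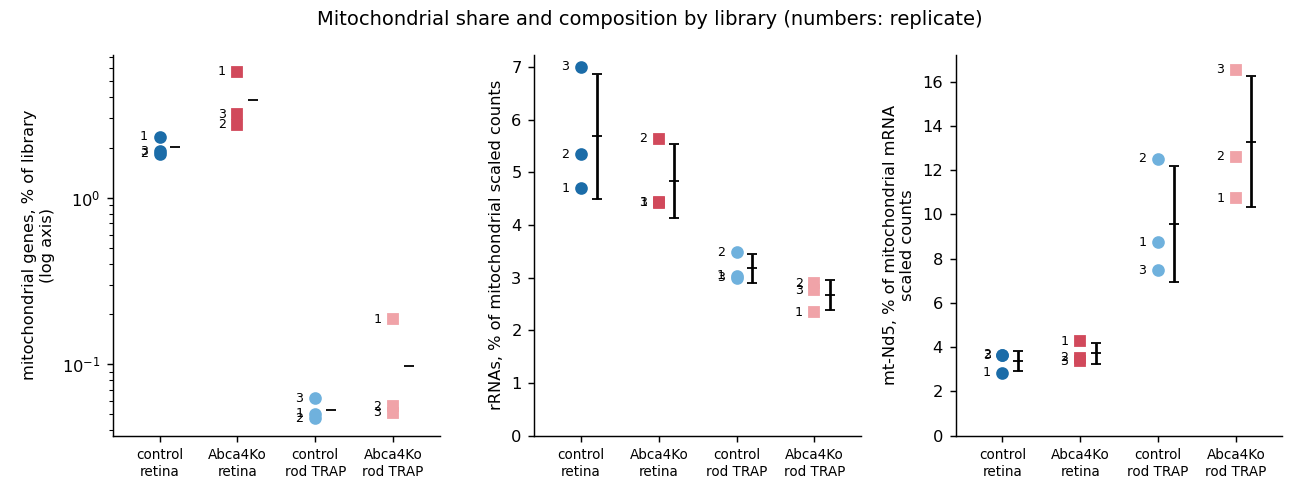
Share of mitochondrial genes in each library (left, percent, log axis), share of rRNAs among mitochondrial scaled counts (middle, percent) and share of mt-Nd5 among mitochondrial mRNA scaled counts (right, percent) in the 4 groups; points are libraries with their replicate number, and black marks are the mean, with SD in the middle and right panels. Retina and rod TRAP libraries separate in all 3 panels, with the rRNA share lower and the mt-Nd5 share higher in rod TRAP.

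The tRNAs, which carry amino acids to the mitochondrial ribosome, were scarce. Together the 22 had 489, 529 and 608 scaled counts in control retina, 1434, 738 and 966 in Abca4Ko retina, 21, 18 and 15 in control rod TRAP and 43, 15 and 14 in Abca4Ko rod TRAP. Between 14 and 17 of the 22 were at 0 in each rod TRAP library and between 1 and 4 in each retina library. The largest was mt-Tp (proline), with 198, 213 and 237 in control retina and 9, 5 and 4 in control rod TRAP. mt-Tn (asparagine) had 71, 73 and 86 in control retina and 1 in each control rod TRAP library, and mt-Tc (cysteine) had 61, 51 and 91 in retina and 0, 1 and 0 in rod TRAP. These 3 lie on the strand of mt-Nd6, and without strand their reads cannot be told from RNA of the opposite strand. Besides them, mt-Tl1, mt-Tm, mt-Ta, mt-Ty, mt-Tr, mt-Tl2 and mt-Te passed the filter on low values in control. All 10 passed through the retina libraries only, so they had to differ and support nothing.

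The second comparison asked whether loss of Abca4 changed these transcripts. In retina, mitochondrial transcripts were more abundant in the Abca4Ko libraries, but none passed the adjusted threshold. 0 of 15 rRNAs and mRNAs were called by limma, beside 0.112% of 16964 genes, and 13 of 15 had an unadjusted p under 0.05, beside 11.9% of all genes. For 14 of 15, every Abca4Ko library lay above every control library, beside 9.39% of all genes. All 15 log2 fold changes were positive, from 0.47 to 1.08, with a median of 0.82, beside -0.01 over all genes tested. The members come from shared precursors and shared libraries, so these are not 15 separate observations. Of 12 tRNAs tested in retina, 0 were called and 4 had an unadjusted p under 0.05. Their log2 fold changes ran from 0.36 to 1.13, the highest for mt-Tp (SE 0.27, limma adjusted p = 0.358). Several of these tRNAs passed the filter on low values.

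For mt-Atp8, an accessory subunit of the ATP synthase, control retina had 2790, 2532 and 2251 scaled counts, against 8560, 3596 and 4813 in Abca4Ko. Its log2 fold change was 1.08 (SE 0.32, limma adjusted p = 0.406). mt-Nd5 went from 11270, 11328 and 11393 in control to 41557, 16325 and 18141 in Abca4Ko, with a fitted log2 difference of 1.04 (SE 0.36 by limma, adjusted p = 0.406). mt-Co1 was at 0.99 (SE 0.33), mt-Nd3 at 0.74 (SE 0.24) and mt-Rnr2 at 0.80 (SE 0.30), each with a limma adjusted p of 0.406. Of the 15 rRNAs and mRNAs, mt-Rnr1 was the only one whose libraries overlapped, at 0.47 (SE 0.28, limma adjusted p = 0.480). In each of these genes replicate 1 was the highest of the Abca4Ko libraries. For the mRNAs it was 1.42 to 2.47 times the mean of replicates 2 and 3.

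The size of the difference in retina rested partly on that library. Without it the 15 log2 fold changes were between 0.20 and 0.66, all positive, and limma again called 0. Without replicate 3, the library with residual Abca4, they were between 0.67 and 1.26 and 0 were called. The summed levels of cell type markers differed between the lysates as well. In Abca4Ko retina replicate 1 the summed level of 20 rod markers was 154642 CPM, against 104176 to 144060 in the other retina libraries. The 15 Müller glia markers summed to 4741 CPM there, against 4834 to 7345 elsewhere. The 14 amacrine cell markers summed to 1032, against 1361 to 1827, and the 14 ganglion cell markers to 758, against 1042 to 1130. None of the genes of these 4 lists was at 0 in all 12 libraries. The 19 lens markers ranged widely, from 13.3 CPM in Abca4Ko retina replicate 1 to 15719 in control retina replicate 1. The part of this in the mitochondrial values was not tested. Fewer cells of a type and less RNA per cell cannot be told apart in such lysates.

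In rod TRAP, 0 of 15 were called between genotypes, beside 1.12% of 13104 genes, and 0 of 15 had an unadjusted p under 0.05, beside 10.4%. All 15 log2 fold changes were positive, from 0.27 to 1.10, with wide errors. The control libraries had 27, 37 and 54 scaled counts of mt-Rnr1, against 152, 44 and 41 in Abca4Ko, with a fitted log2 difference of 0.69 (SE 0.47 by limma, adjusted p = 0.678). For mt-Rnr2 they had 235, 244 and 266, against 595, 232 and 199, at 0.29 (SE 0.45, limma adjusted p = 0.866). In both, only replicate 1 of the knockout lay above the controls. For the mRNAs that library was 1.22 to 4.96 times the mean of the other Abca4Ko libraries.

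Among the 15 rRNAs and mRNAs, mt-Nd5 and mt-Nd6 were the 2 whose genotypes did not overlap in rod TRAP, beside 8.19% of all genes with Abca4Ko higher. The scaled counts of mt-Nd5 were 729, 971 and 772 in control and 3334, 1162 and 1395 in Abca4Ko, a log2 fold change of 1.10 with a 95% half-width of 1.27 (limma adjusted p = 0.537). mt-Nd6 had 291, 288 and 293 in control and 1195, 413 and 476 in Abca4Ko, a log2 fold change of 1.08 with a half-width of 1.15 (limma adjusted p = 0.505). Without Abca4Ko replicate 1, the other 13 were between -0.43 and 0.13, while mt-Nd5 was at 0.60 and mt-Nd6 at 0.56 and both were called (limma adjusted p = 0.0339 and 0.00152). In that fit 2.58% of 12936 genes were called higher and 4.62% in either direction. Its Abca4Ko libraries were replicates 2 and 3 only. Replicate 3, which kept 23.5% of the control mean of Abca4, was the higher of these for both genes. In TPM, mt-Nd5 had 47.6, 63.2 and 49.0 in control and 192.7, 73.8 and 91.3 in Abca4Ko, again without overlap. TPM of mt-Nd6 was 2.1, 1.9 and 1.5 against 1.9, 2.6 and 2.4, which overlapped. Without Abca4Ko replicate 3 the rod TRAP comparison called 0 of 15.

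**Figure D4:**
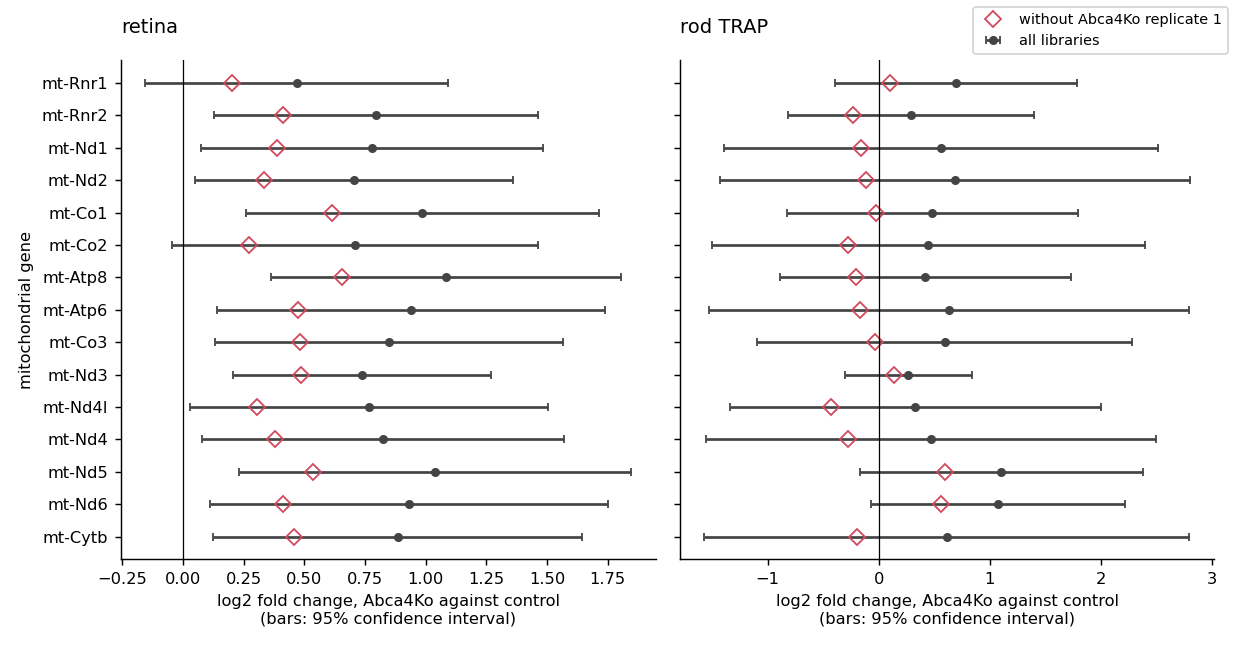
Log2 fold change between Abca4Ko and control (horizontal axis) of the 2 rRNAs and 13 mRNAs in retina (left) and rod TRAP (right; the axes differ in range); filled points use all libraries, with 95% confidence intervals from limma, and open diamonds leave out Abca4Ko replicate 1. All filled points are positive, all diamonds in retina stay positive and closer to 0, and in rod TRAP 11 of 15 diamonds are below 0.

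Markers moved with that library in rod TRAP too. Abca4Ko replicate 1 had 243577 CPM over the rod markers, against 221298 to 235627 in the other rod TRAP libraries. It had 237 CPM over the Müller glia markers, against 153 to 181, and 9949 CPM over 74 nuclear-encoded subunits of oxidative phosphorylation, against 7814 to 8314. Other non-rod lists went both ways. Bipolar markers were at 529 CPM, against 563 to 632, and ganglion cell markers at 20.6, against 20.8 to 30.7. Amacrine markers were at 43.6, within 40.2 to 52.2. Horizontal cell markers were at 53.6, against 42.6 to 48.1. Pigment epithelium markers were at 1124, against 811 to 915, and vascular markers at 2147, against 1884 to 2065. The part of these lists in the mitochondrial values was not tested.

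Whether the fraction difference itself depended on genotype was tested by an interaction term over all 12 libraries. 0 of 15 were called and 0 had an unadjusted p under 0.05, beside 0.00579% of 17273 genes called and 11.3% at that unadjusted p. The smallest p of the 15 was that of mt-Nd3, with an interaction of -0.48 on the log2 scale and a 95% half-width of 0.80 (limma adjusted p = 0.640). For mt-Rnr1 it was 0.23 with a half-width of 1.40 and for mt-Rnr2 -0.52 with a half-width of 1.18. Both intervals reach beyond a 2-fold difference, so the comparison does not show that the fractions behaved alike in the genotypes. The median interaction of the 15 was -0.28. Without both libraries labelled Abca4Ko replicate 3 it was -0.057, with 11 of 15 negative and 0 called, beside 0.00587% of 17026 genes.

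Nuclear genes that work with the mitochondrial genome did not share the fall in rod TRAP. These lists hold messages read by cytosolic ribosomes. Of the 74 nuclear-encoded subunits of the respiratory complexes tested in control, 14 were called higher in rod TRAP, 19 lower and 41 were not called, beside 36% of all genes higher and 39.3% lower, and their median log2 fold change was -0.15. Ndufs1, an iron-sulfur subunit of complex I, was highest at 1.48, and Ndufa3 and Cox8a, small subunits of complexes I and IV, were lowest at -0.72 and -0.70. Of 80 mitochondrial ribosomal proteins tested, 17 were called higher and 16 lower, with a median of 0.02. Ptcd3 and Mrpl1 were highest at 1.67 and 1.61, and Mrps24 and Mrps6 lowest at -1.19 and -0.73. Among 34 genes of mitochondrial transcription and RNA handling, 16 were higher and 3 lower, with a median of 0.27. They include Pnpt1, the mitochondrial polynucleotide phosphorylase, at 2.51, and Lrpprc, which binds and stabilises mitochondrial mRNAs, at 2.43. Hsd17b10, a part of mitochondrial RNase P, was at -0.88 and Mrm1, an rRNA methyltransferase, at -0.73. Among 16 translation factors, 6 were higher and 0 lower, with a median of 0.24, and Mtif2 and Mtrf1l, factors for starting and ending mitochondrial translation, were at 2.65 and 1.88. For this count of 0 lower, the same list had 9 lower and 3 higher under the authors' scaling.

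These nuclear splits depended on the scaling, and the fall of the mitochondrial transcripts did not. Under the authors' scaling alone the median over all genes in control moved from -0.05 to -0.62. The nuclear respiratory subunits were then split into 1 higher and 62 lower, the ribosomal proteins into 5 and 62 and the transcription and RNA genes into 8 and 14, beside 21% of all genes called higher and 58.6% called lower, while the mitochondrial mRNAs had a median of -5.03 and both rRNAs were again called lower. The named nuclear genes kept their signs under all 4 scalings in control. As RNAs that do not code for protein, 5 noncoding RNAs of nuclear genes were tested. Of these 4 were called lower, Rn7sk among them, beside 39.3% of all genes. Malat1, a nuclear-retained RNA, was at -2.36. Rn7sk, the RNA of a transcription regulator complex, was at -4.67, but it had 10 scaled counts or more in at least 2 libraries of the retina only, so its difference supports nothing.

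Between genotypes, none of the 74 nuclear subunits, 34 transcription and RNA genes or 16 translation factors was called in either fraction, and of 80 ribosomal proteins 1 was, Mrpl3 at 0.51 in rod TRAP (limma adjusted p = 0.0375). This is near the share over all genes, 1.12% in rod TRAP and 0.112% in retina. Without Abca4Ko replicate 3 no gene of these lists was called, with Mrpl3 at 0.50 (limma adjusted p = 0.114). Without replicate 1, Mrpl3, Atp5e, Polg2 and Fastkd5 were called in rod TRAP, beside 4.62% of all genes. The median log2 fold change of the nuclear subunits was -0.12 in retina and 0.08 in rod TRAP, beside 0.85 and 0.56 for the mitochondrial mRNAs.

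The nuclear copies followed the mitochondrial genes in the scaled counts. All 7 were called lower in control rod TRAP, beside 39.3% of all genes, with a median of -4.58. In control retina Gm28437 had 53556, 36393 and 40465 scaled counts, beside 52166, 34790 and 39504 for mt-Co3. Over the 12 libraries the ratio of copy to gene was 0.998 to 1.09 for mt-Co3, 1.05 to 1.08 for mt-Co2 and 1.32 to 1.45 for mt-Atp6. It was 0.184 to 0.210 for mt-Co1, whose copy covers only its last part.

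The TPM table divided the same pairs differently. Gm28437 had 9801, 6876 and 7316 TPM in control retina, more than mt-Co3 with 5395, 4363 and 4082. In control rod TRAP mt-Co3 was listed at 0 in all 3 libraries while Gm28437 had 175.8, 189.2 and 279.0 TPM. In Abca4Ko rod TRAP mt-Co3 had 62.6, 110.0 and 126.8 TPM and Gm28437 587.7, 110.3 and 77.9. mt-Co2 was listed at 0 in 5 of the 6 rod TRAP libraries while its copy Gm28661 had 220.4 to 925.3 TPM. For mt-Nd4 and mt-Nd4l the split went the other way, with both copies at 0 TPM in all 12 libraries. Whether a read was counted for both loci or divided between them is not given in the sources used here. The TPM of a member with a nuclear copy is therefore not read alone as its level.

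**Figure D5:**
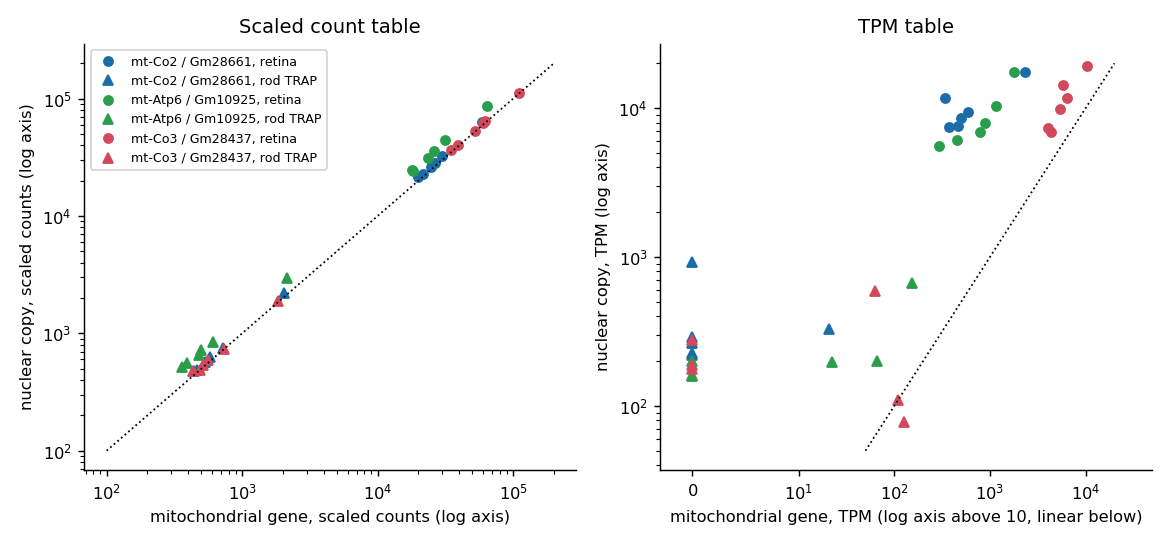
Nuclear copy (vertical axis) against mitochondrial gene (horizontal axis) for 3 pairs, in scaled counts (left, log axes) and TPM (right, log axes, linear below 10 on the horizontal axis); each point is a library, circles are retina and triangles rod TRAP, and the dotted line marks equal values. In scaled counts the points follow the line or lie just above it, and in TPM nearly all lie above it, with several mitochondrial genes listed at 0 in rod TRAP.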

How the data were processed

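RNA from retinal lysate (5 ng) and rod TRAP (10 ng) had been converted with a low-input, poly(A)-primed kit without strand marking. The authors deposited scaled counts, a score made from read counts by 1 factor per library and rounded, and TPM to 1 decimal. The authors' submission notes name CASAVA 1.8.2, HISAT2, DESeq2, edgeR and GRCm39, and the counter and annotation are not given in the sources used here. Samples were grouped by their labels. Scaled counts were fitted with limma 3.58.1 (R 4.3.3) on log2(CPM + 0.5) with TMM factors computed here, robust and with trend, for genes with at least 10 scaled counts in at least 3 libraries, with each comparison's own groups. limma stands in for a count test because these values are not counts. Adjusted p-values are Benjamini-Hochberg over all genes, threshold 0.05. On simulated data, 87% of genes changed by 1 on the log2 scale were recovered in the control fraction comparison, 82% in rod TRAP and 90.7% in retina between genotypes (simulated dispersion 0.02). Between genotypes the SEs of the rRNAs and mRNAs reached 0.81 in rod TRAP and 0.37 in retina. The simulated rates therefore need not hold for them, and a member not called may still have changed by that much. Sequences were compared with Biopython 1.88.

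Members and lists were chosen with earlier results of these data known. The text names mt-Rnr1, mt-Rnr2, the highest and lowest mRNAs, for genotype the rRNAs and mRNAs with the smallest p, and for other lists up to 2 called genes in each direction. mt-Nd6 and mt-Tp between genotypes, the nuclear copies, Mrpl3, Atp5e, Polg2 and Fastkd5 were also singled out after their values were seen. Same-numbered retina and rod TRAP libraries deviated together, with correlations across genes of 0.289, 0.210 and 0.160 in control and 0.469, 0.228 and 0.401 in Abca4Ko, so the number was taken to pair the fractions. 1 unmatched pair, Abca4Ko rod TRAP 2 with retina 3, was at 0.245, above pair 2. The number did not pair genotypes.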

Additional observations from a re-analysis of the deposited data

How the results depend on the processing

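In the comparison of fractions in control, 15 of 15 members were called lower under 14 of 15 alternatives. These were the authors' scaling, median-of-ratios factors, scaling from other rows, no filter, log2(CPM + 2), each library left out, replicate 3 left out of both fractions, the replicate block and a fit of all 12 libraries. On log2(TPM + 1) the count was 14 in each genotype, since mt-Atp6, listed at 0 in 3 rod TRAP libraries, missed the threshold. In Abca4Ko the count fell to 7 without both libraries labelled replicate 3 and was 15 without both labelled replicate 1, an alternative chosen after seeing the data.

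Between genotypes in rod TRAP, log2(TPM + 1) called 1 member, mt-Co3. It was listed at 0 TPM in all 3 control libraries, where its copy Gm28437 had 175.8 to 279.0 TPM. Gene and copy together had 214.7 ± 56.1 TPM in control and 358.4 ± 252.9 in Abca4Ko (SD). In scaled counts mt-Co3 was at 0.59 (limma adjusted p = 0.808). Leaving out each library called 0 to 2. Over those, mt-Rnr2 ran from -0.23 without Abca4Ko rod TRAP replicate 1 to 0.60 without replicate 3, and mt-Co1 from -0.026 to 0.76. In retina every alternative called 0. For the interaction, log2(TPM + 1) called 1, again mt-Co3, and leaving out each library 0. Leaving out 1 library moved mt-Rnr1 between -0.37 (without Abca4Ko rod TRAP replicate 1) and 0.54 (without replicate 3), with -0.0017 without control rod TRAP replicate 1, and mt-Nd4l between -1.22 and 0.061 for the same Abca4Ko libraries. mt-Rnr2 ran from -1.04 without Abca4Ko rod TRAP replicate 1 to -0.16 without Abca4Ko retina replicate 1, and mt-Nd3 from -0.70 without control rod TRAP replicate 1 to -0.17 without control rod TRAP replicate 3. Without both Abca4Ko replicate 1 libraries mt-Rnr1 was at -0.10 (chosen after seeing the data). The cause was not tested. For mt-Rnr1 the adjusted p ranged from 0.670 to 0.999 over the alternatives. The replicate block, with the number as a paired term, left 15 of 15 called lower in both fraction comparisons and 0 in the others, so it changed no count.

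The rRNA share, in the order control rod TRAP, Abca4Ko rod TRAP, control retina and Abca4Ko retina, became 5.94%, 4.71%, 13.3% and 11.9% without mt-Co1, mt-Co2, mt-Co3, mt-Atp6 and mt-Atp8. With only mt-Nd1, mt-Nd2, mt-Nd5, mt-Nd6 and mt-Cytb (chosen after seeing the data) it became 7.29%, 5.58%, 15.5% and 13.9%. In TPM it was 2.12%, 1.85%, 4.71% and 3.85%. Adding the TPM of the copies, also chosen after seeing the data, took the summed mRNA TPM to 1940 in control rod TRAP, 61641 in control retina, 113131 in Abca4Ko retina and 3154 in Abca4Ko rod TRAP. Without Abca4Ko rod TRAP replicate 1 the last group's sum, without copies, was 1219 instead of 1941.

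The depth before scaling is unknown, so counting error could not be given. Members share precursors, some share sequence with nuclear copies, and strand was not marked.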

Other observations

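Among the 13 mRNAs, those with more scaled counts per kb in retina had lower log2 fold changes between fractions, with Spearman's rho of -0.86 in control and -0.80 in Abca4Ko across genes. With the rRNAs added it was -0.52 and -0.35. The retina values enter both sides of this relation, genes are not independent replicates, and members with nuclear copies or overlaps are included. Length and the longest A run showed little relation in control, with rho of -0.10 and -0.05.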
